A study of Mus musculus with 3 samples.

Results

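Lysosomes are the acid compartments in which cells break down protein, sugar chains and lipid. The genes described here are 37 genes of this compartment, taken as a given list that was chosen with earlier results of these data known. All 37 have a row in each of the 3 deposited RNA matrices, which hold 17129 genes for the naive brain, 18935 for the brain with metastases and 16619 for the blood, 19039 genes in all. By role they comprise 11 proteases and their partners (Ctsb, Ctsc, Ctsd, Ctsh, Ctsk, Ctsl, Ctss, Ctsz, Ctsa, Lgmn and Tpp1), 9 membrane proteins (Lamp1, Lamp2, Cd63, Cd68, Scarb2, Laptm5, Npc1, Mcoln1 and Cln3), 8 glycan hydrolases (Hexa, Gaa, Gla, Glb1, Gusb, Naglu, Neu1 and Man2b1), 5 genes grouped with lipid handling (Lipa, Asah1, Npc2, Psap and Grn), 3 proton pump genes (Atp6ap1, Atp6v1a and Atp6v0c) and the transcription factor Tfeb.

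Cathepsins are lysosomal proteases. Most are cysteine proteases, while cathepsin D is an aspartic protease and cathepsin A a serine carboxypeptidase, and legumain, the product of Lgmn, cuts after asparagine and processes other cathepsins. The proton pump keeps the lumen acid, LAMP proteins coat the limiting membrane, and TFEB, with its relatives TFE3 and MITF, binds a short E-box found before many lysosomal genes. Microglia, the resident macrophages of the brain, and monocyte-derived macrophages take up debris and dying cells, and cathepsin S and legumain also process antigen for MHC class II.

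The study profiled female C57Bl/6 mice aged 2 to 3 months by CITE-seq, which reads RNA and antibody tags from the same droplet. The control arm carried Cx3cr1CreERT, a tamoxifen-switched recombinase driven by Cx3cr1, a receptor gene of microglia and some blood monocytes, and the depleted arm carried Cx3cr1CreERT-ROSA-iDTR, which adds a Cre-dependent diphtheria toxin receptor. Both arms received tamoxifen, 1 month of rest and diphtheria toxin, so all groups share Cre, tamoxifen and toxin. Tumour-bearing mice had received cells of the breast cancer line E0771 through a carotid artery about 2 weeks before collection. Each of 8 hashed samples was 1 brain hemisphere or blood, brain cells were enriched on Percoll, and the submitters state that depleted samples still hold remnant microglia. The naive brain gave 785 cells of the control arm and 1868 of the depleted arm, and blood, taken from tumour-bearing mice, 1371 and 1553. The 5933 cells of the brain with metastases were treated as 1 pooled sample with no arm. Each arm of a tissue was 1 hashed sample, which leaves the variation among mice unmeasured and allows no test. Intervals cover counting error only.

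The matrices hold UMI counts that the authors had corrected for depth within each matrix, so levels from different matrices are set side by side without a fold. Raw UMIs summed to 15811707 to 39400503 per arm and tissue. Levels are given in CP10k, the summed corrected UMIs of a gene per 10000 in a cell class. A UMI marks a molecule read at its 3′ end, so no scaling by gene length was applied. Clusters were named from marker lists and are "like" the type they are named for. The naive brain microglia held all 10 microglial markers but were also led by Igkc, Ighm, Jchain and Prss34, genes of B cells and basophils. The blood cluster named T cells was led by Gzma, a gene of the NK cell list. Its NK cell markers summed to 21.8 and 20.8 CP10k in control and depleted cells, beside 45.6 and 43.8 for T cell markers. The matrices share cell barcodes, 339 between naive brain and blood, 518 between the brains and 578 between blood and the brain with metastases. A blood cluster with all 10 microglial markers had 82.7% of its 468 cells on shared barcodes, and its cells are called the microglia-like cells listed in the blood. The toxin receptor row was sparse. In the naive brain it had 0 UMIs in 785 control cells, which allows a share of cells with a UMI of up to 0.382% and does not bound the cells that express it, and 54 UMIs in 27 depleted cells, of which 23 lay among the 686 depleted microglia. In the blood it had 1 UMI in 1 control cell and 7 UMIs in 3 depleted cells. Microglia made up 686 of 1868 cells in the arm labelled depleted and 134 of 785 in the control arm, the larger share being in the depleted arm, and Cx3cr1 was at 10.0 CP10k in depleted and 1.72 in control microglia.

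The promoters are shown for the E-box named above. RefSeq's table for GRCm38.p6 held 300-base promoters, 250 bases before the start and 50 after, for 33 of the 37 genes and 41 promoters in all, with no entry matched for Ctsb, Ctsh, Asah1 and Npc1. CACGTG, a palindrome that reads the same on both strands, lay in 12 of these 41 promoters (29.3%) against 7.15% of the table's 32851. The longer TCACGTGA, which contains it, lay in 6 (14.6%) against 0.974%, and the palindromic core of the CLEAR element, which contains both, lay in 1 promoter of Cln3 against 0.326% of all. The genes with CACGTG were Ctsa, Cln3, Ctsd, Mcoln1, Lamp1, Glb1, Naglu, Gaa, Lgmn, Ctsl, Atp6v1a and Gla. The 4 promoters printed here, 5′ to 3′ on the gene's strand with CACGTG or its longer form in capitals, are those of the most abundant member (Ctsd, chr7:142387778-142388077, minus strand), the member with the most matches (Lamp1, chr8:13158911-13159210, plus strand), the member with the CLEAR core (Cln3, chr7:126583187-126583486, minus strand) and, with no match, the second most abundant member of microglia (Ctss, chr3:95526536-95526835, plus strand).
Ctsd: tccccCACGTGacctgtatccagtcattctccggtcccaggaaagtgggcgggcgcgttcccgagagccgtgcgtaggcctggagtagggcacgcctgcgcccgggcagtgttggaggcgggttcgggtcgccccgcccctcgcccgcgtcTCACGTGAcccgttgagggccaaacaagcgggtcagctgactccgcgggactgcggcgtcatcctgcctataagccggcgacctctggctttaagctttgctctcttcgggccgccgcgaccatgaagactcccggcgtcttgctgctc
Lamp1: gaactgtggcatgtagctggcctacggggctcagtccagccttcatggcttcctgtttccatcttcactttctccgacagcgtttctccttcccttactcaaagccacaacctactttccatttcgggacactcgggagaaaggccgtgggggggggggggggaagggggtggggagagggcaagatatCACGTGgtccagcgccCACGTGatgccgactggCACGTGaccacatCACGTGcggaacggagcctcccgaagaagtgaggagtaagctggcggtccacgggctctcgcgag
Cln3: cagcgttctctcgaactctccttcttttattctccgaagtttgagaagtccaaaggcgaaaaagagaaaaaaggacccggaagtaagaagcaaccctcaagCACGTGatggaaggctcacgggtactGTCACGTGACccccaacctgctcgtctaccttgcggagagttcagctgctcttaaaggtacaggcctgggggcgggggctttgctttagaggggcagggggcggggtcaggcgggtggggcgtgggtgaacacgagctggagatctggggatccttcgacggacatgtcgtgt
Ctss: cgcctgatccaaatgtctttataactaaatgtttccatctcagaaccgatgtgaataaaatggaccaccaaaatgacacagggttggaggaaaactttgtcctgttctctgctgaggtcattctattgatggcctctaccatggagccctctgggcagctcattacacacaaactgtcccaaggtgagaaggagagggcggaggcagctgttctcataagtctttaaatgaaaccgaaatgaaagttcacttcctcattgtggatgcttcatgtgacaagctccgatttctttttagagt
Ctsd had matches beginning 245 and 98 bases before the start. Lamp1 had 4 matches within 61 bases before the start. Ctsd and Ctss, the 2 members with the highest levels in microglia of both brains, thus differed in this window, and a match is a description of letters and not of binding.

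The 37 genes took the largest share of RNA in microglia. In the naive brain they made up 3.20% of corrected UMIs in control microglia and 3.77% in depleted microglia, with quartiles over cells of 2.45% to 3.95% and 2.79% to 4.64%. Monocytes, here clusters with markers of classical monocytes and monocyte-derived cells, had 2.30% and 1.89%, nonclassical monocytes 1.27% and 1.38%, neutrophils 0.571% and 0.846%, NK cells 0.435% and 0.430%, and T cells 0.329% and 0.406%. The order of microglia over monocytes over neutrophils over T cells was the same in both arms. In the brain with metastases microglia had 4.22%, monocytes 2.39%, dendritic cells 1.43%, neutrophils 0.704% and T cells 0.427%. The blood had a flatter order, with 1.29% and 1.19% in control and depleted classical monocytes, 1.14% and 1.12% in nonclassical monocytes, 0.547% and 0.581% in neutrophils, 0.470% and 0.398% in B cells and 0.433% and 0.438% in T cells, while the microglia-like cells listed there had 3.08% in both arms.

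**Figure D1:**
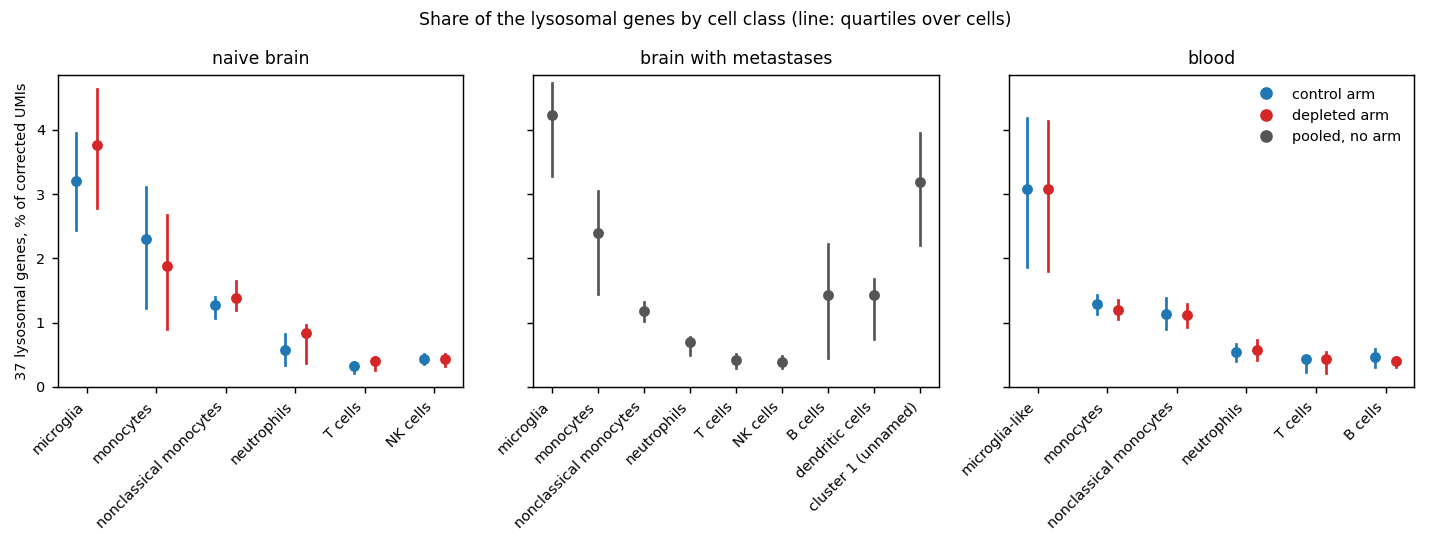
Share of corrected UMIs taken by the 37 lysosomal genes (y axis, percent) in each cell class of the 3 matrices, with the control arm in blue, the depleted arm in red and the pooled brain with metastases in grey. Points are the share over all UMIs of a class and lines the quartiles over its cells, and microglia stand highest in each matrix, at 3.20% and 3.77% in the naive brain and 4.22% in the brain with metastases.

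A few proteases carried most of this share. In naive brain microglia of both arms the proteases took 2.47% of all UMIs, the lipid group 0.528%, the membrane proteins 0.446%, the glycan hydrolases 0.208% and the proton pump genes 0.0216%. Ctsd was the most abundant member, at 65.7 CP10k in the control arm, 91.5 in the depleted arm and 99.8 in the brain with metastases, where 2 genes of any kind lay above it. Ctss followed at 51.8, 62.6 and 71.1 CP10k, Lgmn at 23.4, 25.5 and 30.7, and Psap, the precursor of saposins that help to degrade sphingolipids, at 21.0, 22.8 and 24.9. Ctsb had 19.6, 21.1 and 23.6 CP10k and Ctsz, a carboxypeptidase, 19.6, 21.0 and 24.5. The top 5 members held 59.0% of member UMIs in naive brain microglia and 59.4% in the brain with metastases.

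The leading member differed between classes. Monocytes of the naive brain led with Ctss (34.6 CP10k in the control and 27.6 in the depleted arm), Psap (26.3 and 22.7), Ctsb (23.96 and 16.4), Npc2 (17.9 and 13.5), a cholesterol carrier of the lumen, and Ctsd (15.0 and 17.0). Nonclassical monocytes, of which the depleted arm had 18 cells, led with Psap, at 17.1 and 21.5 CP10k, and Laptm5, a membrane protein of blood cell lysosomes, was also high there at 14.8 and 13.7. Neutrophils led with Ctsd, at 7.15 and 11.8 CP10k in naive brain and at 9.96 and 9.46 in blood. Blood classical monocytes led with Psap at 25.6 and 22.0 CP10k, and blood B cells with Ctss at 7.22 and 5.49. At the other end were Mcoln1, a calcium channel of the lysosome, and Atp6v0c, a membrane subunit of the pump. Both stayed under 0.5 CP10k, the minimum for a gene to count as measured, in every class whose levels were taken. Levels were not taken in naive brain endothelial cells, mural cells of the brain with metastases and a blood cluster of 19 cells. Among the classes taken, Tfeb reached that minimum in the blood alone. It had 0.552 and 0.695 CP10k in nonclassical monocytes and 0.382 and 0.535 in classical ones.

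Microglia were the class with the highest level for 27 of the 37 genes in the naive brain and 24 in the brain with metastases, among the classes named microglia, monocytes, nonclassical monocytes, neutrophils and lymphocytes. In the naive brain the exceptions with monocytes highest were Ctsc, Ctsk, Cd68, Gla, Npc2, Psap and Atp6v1a, and those with nonclassical monocytes highest were Lipa, the acid lipase, Atp6ap1 and Tfeb. The brain with metastases had monocytes highest for Ctsb, Ctsc, Ctsk, Cd68, Cln3, Gla, Neu1, Lipa, Npc2, Psap and Atp6v1a, neutrophils for Atp6ap1 and nonclassical monocytes for Tfeb. Several of these leads were small, such as 24.6 against 23.6 CP10k for Ctsb. In the blood 30 genes were highest in the microglia-like cells, and the others were Npc2 and Psap in classical monocytes, Laptm5, Lipa, Atp6ap1 and Tfeb in nonclassical monocytes, and Cln3 in neutrophils at 0.775 CP10k.

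**Figure D2:**
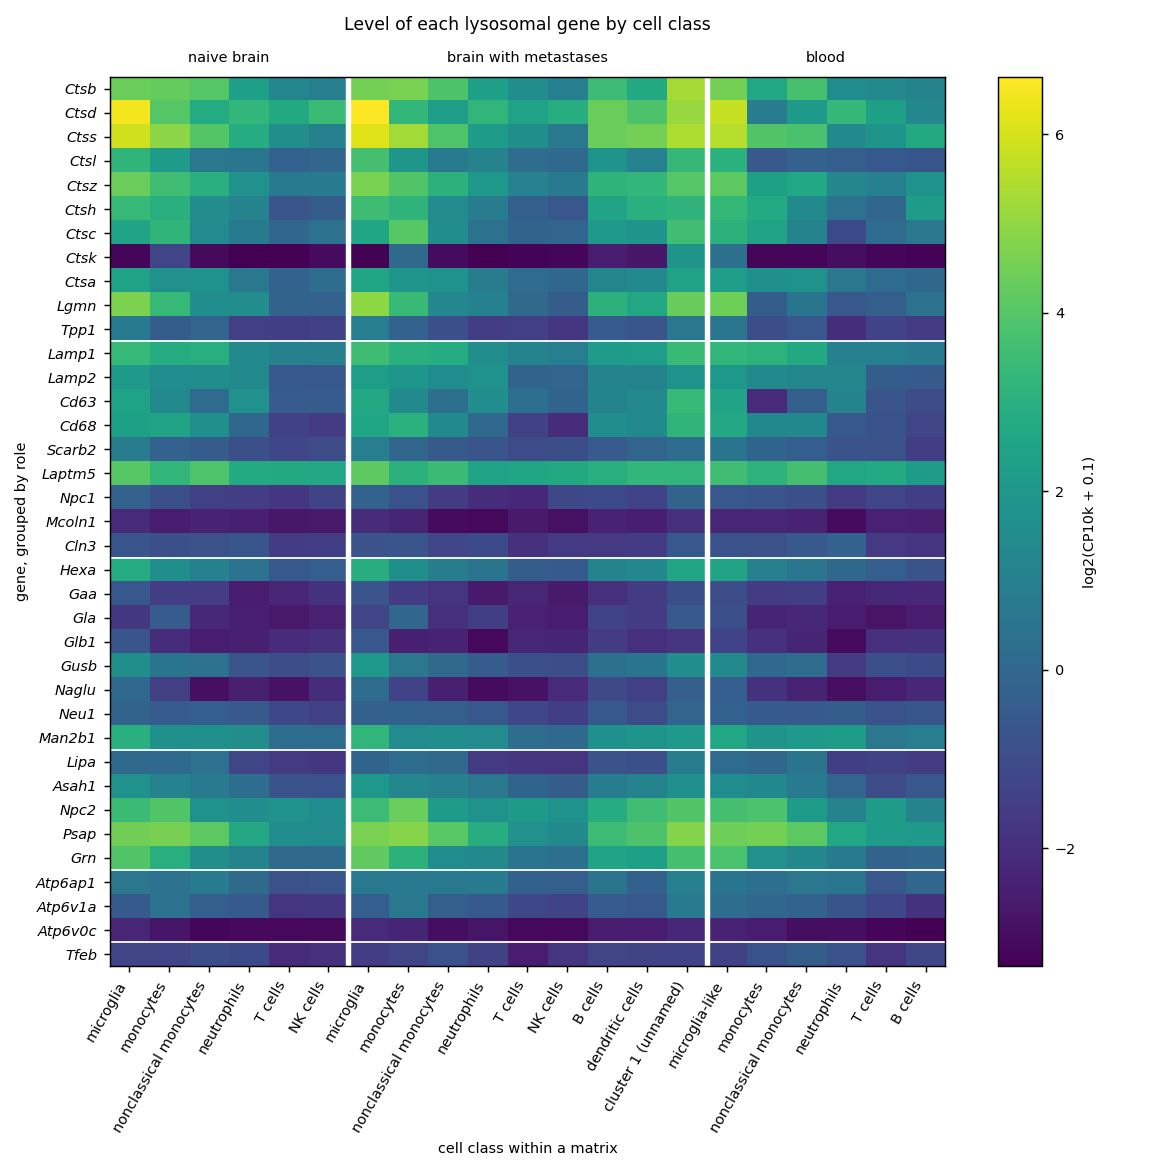
Level of each of the 37 lysosomal genes (rows, grouped by role) in each cell class (columns), as log2(CP10k + 0.1) on the colour scale, with arms joined and the 3 matrices set apart by white bars because each was corrected on its own. Ctsd and Ctss are brightest in microglia of both brains, and Mcoln1 and Atp6v0c are dark throughout. Ctsk is dark except in monocytes of both brains, cluster 1 of the brain with metastases and the microglia-like cells listed in the blood.

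Microglia and monocytes of the same brain differed in the levels of some lysosomal genes. Past 2 fold on log2(CP10k + 0.1), 12 genes were higher in microglia and 1 was lower of 33 measured in the naive brain, where 11.6% of all 3480 measured genes were higher and 11.7% lower. In the brain with metastases 12 were higher and 4 lower of 34, against 15.7% and 17.4% of 3337 genes. The median of the measured members was 0.71 and 0.65 on the log2 scale, against -0.05 over all genes in both brains. The classes were made from expression, so these are descriptions. In the naive brain 45.2% of the monocytes and 76.6% of the microglia had the markers of their own class highest. Shared barcodes held 62.2% and 29.8% of these cells.

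Among proteases higher in microglia, Ctsd stood farthest apart in both brains, at 87.3 CP10k in microglia against 16.2 in monocytes of the naive brain (log2 difference 2.42, 95% interval of the ratio 5.23 to 5.54) and 99.8 against 9.54 in the brain with metastases (3.37, ratio 10.2 to 10.7). Lgmn was at 25.2 against 10.1 CP10k and 30.7 against 10.8. Ctsl, a cysteine protease, was at 9.19 against 4.31 and 12.9 against 3.73 CP10k, and Tpp1, a tripeptidyl peptidase, at 1.69 against 0.676 and 1.82 against 0.774. Ctss was past 2 fold in the naive brain (60.9 against 30.4 CP10k) and just under it in the brain with metastases (log2 difference 0.89). In contrast Ctsb was nearly level, at 20.9 against 19.4 and 23.6 against 24.6 CP10k.

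The glycan hydrolases were mostly on the microglial side. Of the 8, Hexa, Glb1, Gusb, Naglu and Man2b1 were past 2 fold in both brains and Gla was past 2 fold in the other direction in both. Hexa, the alpha subunit of hexosaminidase, had 6.85 against 3.01 CP10k in the naive brain and 7.30 against 3.02 in the brain with metastases. Man2b1, an alpha-mannosidase, had 7.92 against 3.15 and 9.25 against 2.68. Glb1, the lysosomal beta-galactosidase, had 0.541 against 0.137 and 0.547 against 0.0834, so its ratio rests on low levels. Gla, an alpha-galactosidase, had 0.206 CP10k in microglia against 0.628 in monocytes and 0.328 against 0.866. Among the other groups, Cd63, a tetraspanin, was past 2 fold on the microglial side in both brains (5.44 against 2.66 and 6.42 against 2.53 CP10k). Scarb2, the carrier of glucocerebrosidase, passed in the naive brain alone (log2 1.05 and 0.99). Laptm5 (16.6 against 9.499 and 18.0 against 8.35 CP10k) and Grn, the progranulin gene (15.2 against 7.75 and 18.2 against 8.35), passed in the brain with metastases alone. The difference between the brains was not compared, since the matrices were corrected separately.

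Monocytes led for a small set. Ctsc, which activates serine proteases of granules, had 9.10 CP10k in monocytes against 5.57 in microglia of the naive brain and 16.7 against 5.75 in the brain with metastases, where it passed 2 fold (log2 difference -1.52). Atp6v1a, the catalytic pump subunit, had 1.20 against 0.598 and 1.495 against 0.696 CP10k and passed in the brain with metastases. Ctsk, a collagen-degrading cathepsin known from osteoclasts, had 945 corrected UMIs in monocytes of the brain with metastases and 2 in microglia, a ratio of 0.00331 with a counting interval of 0.000401 to 0.0120. Npc2 (15.2 against 10.9 and 20.3 against 11.4 CP10k) and Cd68, the macrophage membrane glycoprotein (5.53 against 5.01 and 8.19 against 5.69), leaned the same way without passing 2 fold.

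**Figure D3:**
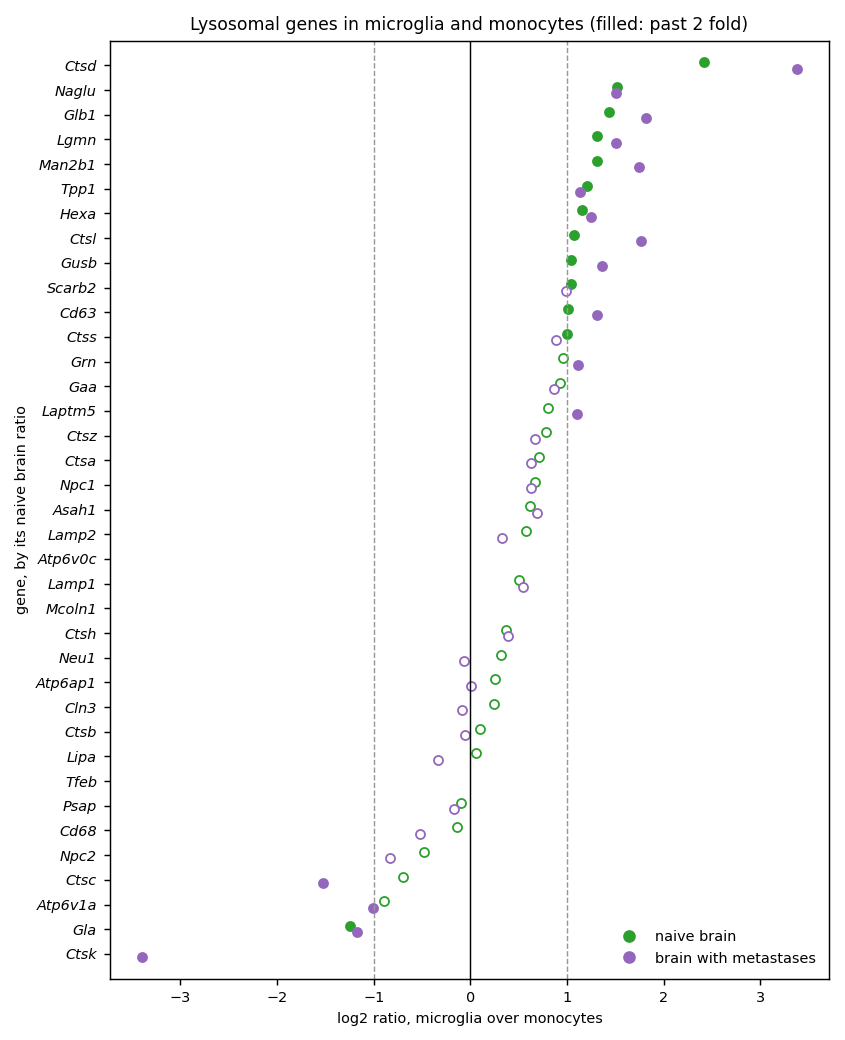
Log2 ratio of CP10k + 0.1 in microglia over monocytes (x axis) for each measured lysosomal gene (y axis, ordered by the naive brain), with the naive brain in green, the brain with metastases in purple and filled points past 2 fold; rows without a point were under the minimum level. Ctsd lies farthest to the right in both brains, at 2.42 and 3.37, and Gla lies past 2 fold to the left in both.

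In the brain with metastases the monocytes comprised clusters that differed in the same genes. Cluster 26, led by F13a1, Thbs1, Chil3 and Vcan, genes of classical monocytes, gave the 37 genes 1.42% of UMIs, and cluster 3, led by Cxcl9, Ly6i and Ccl8, with the interferon-induced Gbp2 among its top 10 genes, gave them 2.72%. Ctsb was at 9.40 CP10k in cluster 26 and 29.7 in cluster 3, Lgmn at 2.67 and 13.5, Ctsd at 4.39 and 11.3, Grn at 3.36 and 10.0 and Cd63 at 0.690 and 3.15. Psap differed less, at 23.8 and 29.5 CP10k, as did Lamp1, at 7.65 and 8.01. Cluster 1, with no type name and led by Pf4, Spp1, Apoe, Mrc1 and Ctsk with haemoglobin genes among the next, gave the genes 3.19%, with 39.7 CP10k of Ctsb, 34.7 of Ctsd, 20.2 of Lgmn and 10.0 of Cd63. Ctsk was at 0.00413 CP10k in cluster 26, 1.32 in cluster 3 and 3.498 in cluster 1, although the member genes had been left out of the clustering. Cluster 26 had 16.5% of its cells on shared barcodes, cluster 3 had 18.3% and cluster 1 had 11.1%.

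Neutrophils, which store proteases in granules made before they leave the marrow, had low levels of most members. In the naive brain 26 of 32 measured genes were past 2 fold higher in microglia than in neutrophils and 0 were lower, against 36.4% of all genes in either direction, 22.2% higher and 14.2% lower. Lamp2 (4.14 against 2.59 CP10k), Cd63 (5.44 against 3.16), Cln3 (0.541 against 0.534), Neu1, a sialidase, Atp6ap1 and Atp6v1a did not pass. Within the blood, 13 of 28 measured genes were past 2 fold higher in classical monocytes than in neutrophils and 2 were lower, against 49.9% of all genes in either direction, 34.8% higher and 15.1% lower. Those lower were Cd63 (0.1295 CP10k in monocytes and 2.10 in neutrophils) and Ctsd (1.72 and 9.74). The largest differences on the monocyte side were in Ctsc (5.55 against 0.369 CP10k), Npc2 (13.9 against 2.11), Ctss (15.2 against 2.66) and Ctsh, an aminopeptidase (6.66 against 1.24).

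Lymphocytes had low but measurable levels. In naive brain T cells 31 of 32 measured genes were past 2 fold below microglia and the other, Cln3, lay just short, against 25.5% of all genes. Free RNA in the droplets gives every cell some RNA of other types, and microglial identity genes were set beside the members as a gauge of RNA from microglia alone. They do not size free RNA from monocytes, whose markers in naive brain T cells summed to 11.4 and 10.8 CP10k in control and depleted cells, beside 77.7 and 55.5 in monocytes, and NK cells can express Cx3cr1 themselves. In naive brain T cells the 10 microglial markers stood at a median of 0.732% of their microglial level in the control arm and 2.07% in the depleted arm, with a highest value of 3.20% and 4.16%. The measured members stood at medians of 11.4% and 14.3%, and 29 of 30 and 30 of 32 lay above the highest marker. NK cells had members at 17.2% and 15.2%, with 20 of 30 and 30 of 32 above the highest marker. For control NK cells that marker was Cx3cr1 at 10.7%, from 6 UMIs. Cx3cr1 was also the highest marker in control T cells, from 3 UMIs. Its level in NK cells was 0.183 CP10k in the control and 0.242 in the depleted arm. In microglia it was 1.72 and 10.0, so its control percentages rest on a low reference level. In the brain with metastases the members' medians were 14.8% in T cells and 12.4% in NK cells, with 30 and 28 of 31 above the highest marker.

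The members differed in how far lymphocytes stood above the markers. Laptm5 was at 39.8% and 39.2% of its microglial level in control and depleted T cells of the naive brain, Npc2 at 34.4% and 30.4%, and Neu1 at 76.0% (30 UMIs) and 39.4%. Lgmn was at 1.96% and 3.32%, inside the range of the markers in both arms, as was Naglu in the depleted arm, and Ctss, at 4.07% and 4.82%, Cd68, at 3.68% and 6.00%, and Grn, at 4.84% and 6.64%, lay close above it. Ctsd, at 7.20% and 7.51%, was among the lower members as a percentage although its level, 4.73 and 6.88 CP10k, was among the highest in these cells. How much of the members' values in lymphocytes came from free RNA was not tested.

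**Figure D4:**
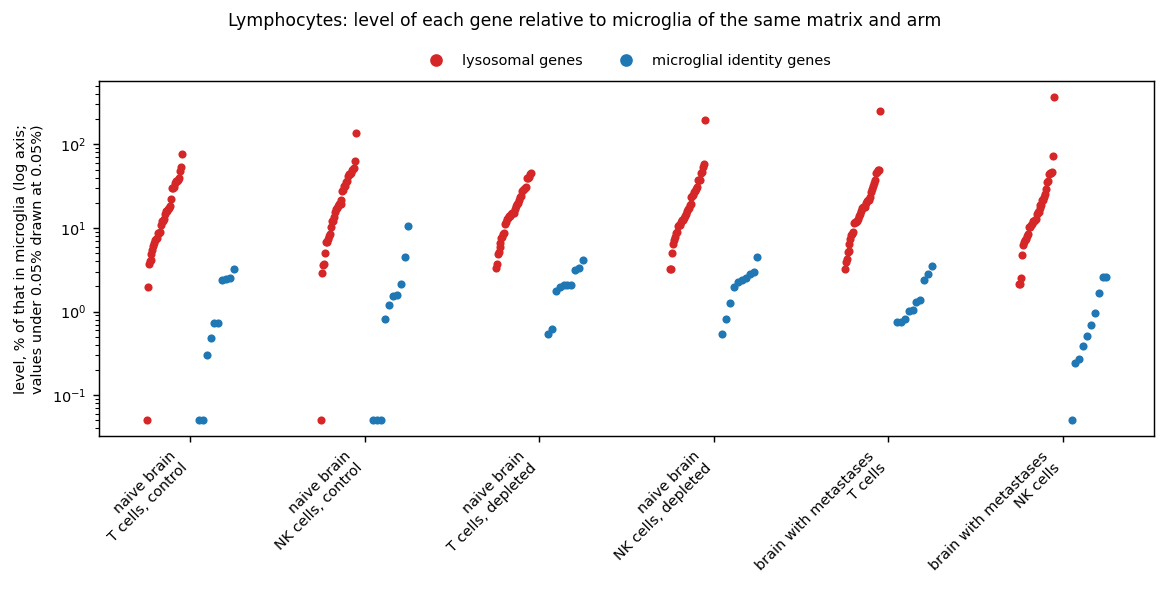
Level of each lysosomal gene (red) and each microglial identity gene (blue) in T cells and NK cells as a percentage of its level in microglia of the same matrix and arm, on a log axis with values under 0.05% drawn at 0.05%. Most lysosomal genes lie above the identity genes in each column, Ctsk, under the minimum level, is the highest point in 4 columns, and T cells of the control naive brain have medians of 11.4% against 0.732%.

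Between the arms of the naive brain, microglia kept nearly the same pattern of members. Only Glb1 was past 1.5 fold among 32 measured genes, at 0.309 CP10k in the control arm and 0.586 in the depleted arm (log2 0.75, ratio 1.37 to 2.68), against 4.13% of all 3172 measured genes past that fold, 0.851% higher and 3.28% lower. The shift was broad and small: 26 of the 32 were above 0, with a median of 0.12 against -0.05 over all genes, of which 39.7% were above 0. Ctsd (65.7 and 91.5 CP10k, log2 0.48), Naglu (0.746 and 1.02), Gusb (2.27 and 3.03), Hexa (5.44 and 7.12) and Grn (12.1 and 15.7) were next. Ctsl (10.3 and 8.98 CP10k) and Ctsc (5.93 and 5.51) were on the lower side. Summed over the 37 genes the ratio was 1.18 (1.17 to 1.19). Microglial markers summed to 77.6 CP10k in the control and 92.5 in the depleted arm with 5 of 10 higher and 5 lower, Cx3cr1 (1.72 and 10.0) and Sparc (22.6 and 28.8) having the largest gains. Neutrophil markers summed to 67.6 and 52.1 CP10k and stress genes to 224 and 176.5, with no marker of these lists at 0. Red cell markers were at 0.331 and 24.2 CP10k and T cell markers at 1.58 and 3.27, and the part of these lists in the shift was not tested. In cells whose microglial markers exceed those of every other type, 88 control and 540 depleted, the members' median was 0.03.

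Monocytes of the naive brain went the other way. Of 29 measured genes 26 were lower in the depleted arm, with a median of -0.30 against -0.05 over all genes, and 3 were past 1.5 fold, all lower, against 8.83% of all genes in either direction and 6.38% lower. These were Cd63 (3.39 CP10k in the control and 2.18 in the depleted arm), Gla (0.942 and 0.421) and Atp6v1a (1.61 and 0.933). Ctsb, at 23.96 and 16.4 CP10k, Cd68, at 6.82 and 4.69, and Grn, at 9.54 and 6.57, were just short. Ctsd was the largest exception, at 15.0 and 17.0 CP10k. The summed ratio was 0.820 (0.807 to 0.834). Monocyte markers also summed lower, at 77.7 and 55.5 CP10k, neutrophil markers at 65.2 and 23.8 and border macrophage markers at 4.14 and 1.79, while microglial markers were at 11.5 and 14.7 and dendritic cell markers at 2.22 and 5.23, with 6 of 7 higher, and the part of these lists in the result was not tested. In this class 62.2% of cells had shared barcodes. Without those cells, 11 genes were past 1.5 fold, all lower, with a median of -0.55 in 40 control and 67 depleted cells. The authors' surface gate for Ly6C-high cells gave 5, of which 1 was higher, and Cd63 turned to a log2 ratio of 0.86. The share of all genes past 1.5 fold was not computed without shared barcodes or under the gate, so neither count is set against it.

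In naive brain neutrophils 11 of 26 measured genes were past 1.5 fold, all higher in the depleted arm, against 23.6% of all genes in either direction, 17.3% higher and 6.31% lower. The genes were Ctsb, Ctsd, Ctss, Ctsz, Ctsa, Lgmn, Cd68, Scarb2, Hexa, Npc2 and Atp6v1a. Ctss had 4.22 CP10k in 49 control cells and 9.64 in 56 depleted cells (log2 1.17, ratio 1.93 to 2.71), and Lgmn had 1.79 and 3.73. Neutrophil markers summed lower in the depleted arm, at 1454 against 2189 CP10k. Microglial markers summed to 8.57 against 4.89, monocyte markers to 26.3 against 17.7 and T cell markers to 10.0 against 1.65. Border macrophage markers summed to 1.14 against 0.0447 CP10k, with 4 of 5 higher, 0 lower and 4 at 0 in the control arm. The part of these lists was not tested. Cells with shared barcodes made up 65.7% of the class, and too few were left without them for a comparison. With the authors' surface gate for Ly6C+Ly6G+ cells, 59 control and 55 depleted, 1 gene was higher and 3 were lower, and Ctss, Ctsb, Lgmn, Cd68, Hexa, Npc2 and Atp6v1a changed sign. The share over all genes was not computed for this gate.

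T cells of the naive brain had 5 of 21 measured genes higher past 1.5 fold in the depleted arm (Ctsb, Ctsc, Lgmn, Hexa and Grn) and 1 lower (Neu1), against 6.64% of all genes in either direction, 2.66% higher and 3.98% lower. Ctsb had 1.47 CP10k in 59 control cells and 2.38 in 440 depleted cells, and Neu1 had 0.550 and 0.319. Microglial markers summed to 1.25 CP10k in the control and 2.46 in the depleted arm, with 2 of 10 at 0 in the control, and their part was not tested. The gate for CD3+ NK- cells, with 34 control cells, gave 10 genes lower and 0 higher, with Ctsb, Lgmn and Grn among those of the opposite sign. The share over all genes was not computed for that gate. NK cells had Ctsc, Hexa and Grn higher and Gusb lower of 21, against 14.4% of all genes, 7.38% higher and 7.06% lower. Microglial markers there summed to 1.49 and 2.36 CP10k in control and depleted cells, with 9 of 10 higher, and neutrophil markers to 2.90 and 8.05, and their part was not tested. Each of those calls rests on 13 to 26 control UMIs.

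In the blood, 0 to 1 members were past 1.5 fold in each class but B cells, which had 5. Neutrophils had 0 of 23 genes past 1.5 fold, against 3.54% of all genes, with Ctsd at 9.96 and 9.46 CP10k and Cd63 at 1.91 and 2.34. Classical monocytes had Lgmn lower, at 0.869 CP10k in the control and 0.4995 in the depleted arm, as 1 of 27 against 5.29% of all genes in either direction and 3.21% lower, and the authors' Ly6C-high gate turned its sign (log2 0.67). Microglial markers in the class, Cx3cr1 among them, summed to 0.827 and 2.63 CP10k, with 5 of 10 higher and 5 lower, and their part was not tested. Nonclassical monocytes had Cd63 lower (1.08 and 0.623), as 1 of 29 against 11.5% of all genes, 6.49% higher and 4.98% lower. Neutrophil markers in that class summed to 107 and 35.2 CP10k, with 7 of 7 lower. Microglial markers, which include Cx3cr1, a gene of some blood monocytes, summed to 1.43 and 4.65, with 5 of 10 higher and 5 lower. The part of these lists was not tested. T cells had Cd63 higher (0.34998 and 0.678 CP10k), as 1 of 19 against 7.88% of all genes in either direction and 4.99% higher, from 19 and 39 UMIs. This class also held NK cell markers. T cell markers were highest in 54.4% of its cells, and 49.0% had shared barcodes. Border macrophage markers in T cells summed to 0.0737 and 0.904 CP10k, with 5 of 5 higher and 3 at 0 in the control arm, and microglial markers to 1.22 and 2.26, with 9 of 10 higher, and their part was not tested. B cells had 5 of 20 lower, Ctsb (2.54 and 1.498 CP10k), Ctsd (2.81 and 1.67), Ctsl (0.678 and 0.331), Lgmn (1.48 and 0.876) and Lamp2 (0.749 and 0.428), against 10.5% of all genes in either direction and 4.84% lower. Their microglial markers summed to 1.53 and 1.28 CP10k and neutrophil markers to 13.8 and 28.9, and their part was not tested. Without shared barcodes 2 B cell genes were past that fold, and the share over all genes was not computed there.

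The microglia-like cells listed in the blood had Ctsk past 1.5 fold, as 1 of 30 genes against 2.93% of all genes, at 0.335 CP10k in the control arm and 2.03 in the depleted arm (47 and 291 corrected UMIs). The other members were level, with a median of 0.01 over the measured genes, and Ctsd was at 54.7 and 53.9 CP10k and Ctss at 46.3 and 45.1. Border macrophage markers summed to 4.13 CP10k in the control and 2.38 in the depleted arm, with 2 of 5 higher and 3 lower. Of these 5, 1 was at 0 in the control arm. Mural cell markers summed to 19.1 and 9.12, and the part of these lists was not tested. The Ctsk difference was not present in cells without shared barcodes, 42 control and 39 depleted, where the log2 ratio was -0.52, or in the 67 and 66 cells whose microglial markers were highest, where it was 0.02.

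**Figure D5:**
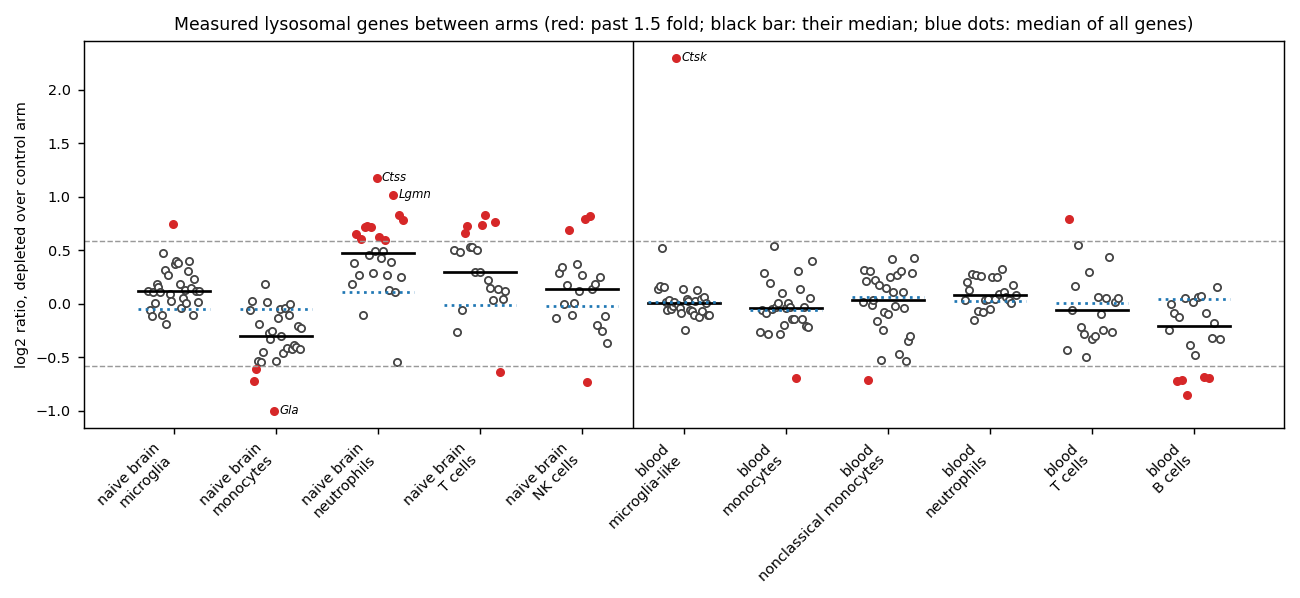
Log2 ratio of CP10k + 0.1 in the depleted over the control arm (y axis) for each measured lysosomal gene in 11 cell classes (x axis, naive brain left of the line, blood right), with red points past 1.5 fold, black bars at the members' median and dotted blue bars at the median of all measured genes. The medians run from -0.30 in naive brain monocytes to 0.48 in naive brain neutrophils, and each arm is 1 sample.

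Another list held genes linked to the lysosome together with cystatins and stefins, inhibitors of cathepsins, so it is not of lysosomal genes alone. Its 61 genes were counted in the same way. In naive brain microglia 41 were measured between arms, against 4.13% of all genes past 1.5 fold, with 2 higher past 1.5 fold (Arsb, a sulfatase, and Cst7, the cathepsin inhibitor cystatin F) and 4 lower (Stfa1, Stfa2l1, BC100530 and Litaf), and a median of -0.06. The first 3 of the lower genes are stefins of the neutrophil kind. Neutrophil markers summed to 67.6 and 52.1 CP10k in control and depleted microglia, and their part was not tested. Monocytes had Ctsw and Cst3, the gene of cystatin C, higher and Stfa2l1 and Atp6v1d lower of 33, against 8.83% of all genes. Between microglia and monocytes 9 of 40 were higher past 2 fold in the naive brain and 1 was lower, against 11.6% and 11.7% of all genes. In the brain with metastases 8 of 38 were higher and 5 lower, against 15.7% and 17.4%. Cst3 had 173 CP10k in microglia against 56.7 in monocytes of the naive brain and 198 against 25.97 in the brain with metastases, and Arsb had 2.89 against 0.566 and 4.07 against 0.157. Cstb, the gene of stefin B, was on the monocyte side at 1.43 against 6.998 and 1.93 against 12.8 CP10k. Of the relatives of Tfeb, Tfe3 was past 2 fold higher in microglia in both brains, at 1.03 against 0.460 and 1.05 against 0.435 CP10k.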

How the data were processed

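The authors deposited depth-corrected UMI counts as natural log values after adding 1, per the file headers and the values: with the log undone, 100% of values were whole. The design had been written for counts, and the same descriptive comparisons were made on these corrected counts. The deposited annotation gives the raw count of UMIs per cell, the arm, the cluster and surface gates, and 72 of its columns were not used. Cell Ranger 3.1, Seurat 3.1.1 and mm10 are named in the submitters' processing notes. The brain with metastases was clustered without the member genes in scanpy 1.11.5 (2000 variable genes, 30 principal components, 20 neighbours, Leiden resolution 1.0). No cell was filtered further and no doublet caller was run. A cluster was named from at least 3 markers at 2 fold.

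Ratios are log2(CP10k + 0.1) in Python 3.11.15, with 30 cells or more on each side. They cover genes at 0.5 CP10k or more on at least 1 side. The arm ratios were also run on simulated sums with counting error alone, without free RNA, mixed cells or variation among mice. There 86% to 100% of doubled genes, 81% to 97% of halved genes and 0% to 3.18% of unchanged genes were called. A call is past 1.5 fold between arms and past 2 fold between classes, and brackets are exact 95% intervals of the UMI ratio. Depth-corrected UMIs are not raw molecules, so these intervals are approximate. Values are given for the top 5 members of a class, the members past those folds and the members whose highest class was not microglia, and further values describe the rest. The members and lists were chosen with earlier results of these data known. Alternatives were another pseudocount, no minimum level, the mean over cells, another scaling, surface gates, and leaving out shared barcodes or depth outliers, besides other clusterings. Protein sequences were not used here.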

Additional observations from a re-analysis of the deposited data

Results flagged for a closer look

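The summed share of the 37 genes, depleted over control, was 1.18 in naive brain microglia and 0.820 in naive brain monocytes. It was picked because the arms lay in opposite order in these 2 classes of the same samples. Within 1 tissue, microglia with monocytes was the only pair of classes that could be picked. Naive brain neutrophils, at 1.48, and T cells, at 1.23, also lay opposite to monocytes. These differences were not tested, since each arm was 1 hashed sample. Among the measured genes 26 of 32 were above 0 in microglia and 26 of 29 below 0 in monocytes, with medians of 0.12 and -0.30. The medians were 0.11 and -0.55 without shared barcodes, 0.19 and -0.26 under the surface gates, where Cd63 in monocytes turned to 0.86, and 0.03 and -0.30 in cells with their own markers highest.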

How the results depend on the processing

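No paired analysis was possible because each arm and tissue was 1 hashed sample. Of 112 counts under alternatives, 80 stayed within 1.5 times the main count, the 5 comparisons of classes among them, and 32 did not, all between arms. The share over all genes was not computed under the alternatives, so these counts of members are not set against it. A pseudocount of 0.5 gave 0 calls in naive brain microglia, T cells and NK cells and in blood monocytes, nonclassical monocytes and T cells, 1 in naive brain monocytes, 5 in naive brain neutrophils and 2 in B cells; a larger pseudocount shrinks the ratios of low genes. With no minimum level the counts were 2 in blood monocytes, nonclassical monocytes and T cells and 9 in B cells, and without depth outliers 2 in blood T cells. The surface gates gave 5 in naive brain monocytes, 4 in neutrophils and 10 in T cells, and in the blood 3 in monocytes, 6 in nonclassical monocytes, 2 in T cells and 2 in B cells. Without shared barcodes the counts were 11 in naive brain monocytes and 3 in T cells, and in the blood 3 in the microglia-like cells, 0 in monocytes, 2 in nonclassical monocytes, 4 in T cells and 2 in B cells. Cells with their own markers highest, an alternative chosen after seeing the data, gave 7 in naive brain monocytes, 6 in blood nonclassical monocytes, 4 in T cells and 3 in B cells.

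Of 697 values of named genes, 13 changed sign: 12 of the 33 under the surface gates and 1 of the 120 without shared barcodes. Under the gates Cd63 in naive brain monocytes became 0.86 and Lgmn in blood monocytes 0.67. Naive brain neutrophils gave -0.10 for Ctsb, -0.21 for Ctss, -0.039 for Lgmn, -0.61 for Cd68, -0.15 for Hexa, -0.49 for Npc2 and -0.12 for Atp6v1a, and T cells -0.58 for Ctsb, -0.62 for Lgmn and -0.63 for Grn. Without shared barcodes Ctsk in the blood's microglia-like cells became -0.52. Apart from the effect of the pseudocount the cause was not tested. Not run, for lack of cells or of a gate, were naive brain neutrophils and NK cells without shared barcodes, NK cells by own markers, and a gate for the blood's microglia-like cells. The earlier annotation was set against the blood alone and other Leiden resolutions against the brain with metastases alone. Mcoln1, Atp6v0c and, outside the blood, Tfeb were under the minimum level in every class whose levels were taken.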

Other observations

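Cells outside the immune classes of the brain with metastases had a different order of lysosomal genes. Tumour-like cells, 1165 cells led by Krt8 and cell cycle genes, gave the 37 genes 0.544% of UMIs and led with Cd63 at 12.5 CP10k, followed by Ctsb at 5.25, Ctsz at 5.12 and Ctsl at 4.70. Endothelial-like cells, 512 in number, gave 0.516% and led with Ctsd at 4.96 and Psap at 4.95 CP10k, with Ctsh at 3.55. Dendritic-like cells led with Ctss at 23.5 CP10k. B cells of this brain gave 1.43% as a pool, but the median over their cells was 0.597% with quartiles of 0.457% and 2.22%, 68.9% of them had B cell markers highest, and 57.1% had shared barcodes. A cluster of 133 cells with no type name, led by stefin genes and P2ry12, gave 3.63%, and 67.7% of its cells had shared barcodes.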
